A study of Mus musculus with 33 samples.

Results

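Ephrins, semaphorins, Slits and netrins are extracellular cues that steer growing axons and migrating cells, and their receptors are the Eph kinases, the plexins with their neuropilin co-receptors, the Robo proteins and the Unc5 proteins. The genes described here were chosen by name: every gene of the table whose mouse symbol begins with Epha, Ephb, Efna, Efnb, Sema, Plxn or Unc5, or with Slit, Robo or Ntn and a number, together with Nrp1 and Nrp2. The rule found 66 of the 17120 genes. It also takes in Unc50, a protein of the endoplasmic reticulum and Golgi that shares only its first letters with the netrin receptors, and the other 65 are the guidance genes proper. They comprise 7 EphA and 5 EphB receptors, 5 ephrin-A and 3 ephrin-B ligands, 7 secreted class 3 semaphorins, 13 semaphorins of classes 4 to 7, 8 plexins, 2 neuropilins, 3 Slits, 4 Robo receptors, 4 netrins and 4 Unc5 receptors. Epha6, Epha10, Plxnb3 and Unc5cl have no row in the table and were not analysed here.

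Ephrins are bound to the cell surface, ephrin-A by a lipid anchor and ephrin-B by a transmembrane segment, so that Eph signalling needs contact between cells and can run into both of them. Class 3 semaphorins are secreted and act through complexes of a neuropilin and a plexin, with Sema3e as the member that can bind plexin D1 directly, whereas most of the other semaphorins are held in the membrane and bind plexins. Slits signal through Robo receptors, and netrins through Dcc, neogenin and the Unc5 family. In the paraxial mesoderm, ephrin and Eph proteins are best known for forming the boundaries between somites, and several of these cues also guide blood vessels, neural crest and motor axons through the tissue that later forms tendon and vertebral cartilage.

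The cells were mouse embryonic stem cells with a Scx reporter that had been taken to paraxial mesoderm (PM) as embryoid bodies with the BMP inhibitor LDN-193189 and the Wnt agonist CHIR, and PM was sampled at day 6 (D6) before any induction. The methods also allow AGN 193109 or retinoic acid in the PM medium of the optimised protocol, without saying what these libraries had received. Libraries after D6 are labelled as monolayers and were made with TGFβ1, the hedgehog agonist SAG and FGF2 in all cultures, and with either CD1530, an agonist of retinoic acid receptor gamma, for the tendon fate or AGN 193109 (AGN), which lowers the basal activity of those receptors as an inverse agonist, for the fibrocartilage fate. Libraries of CD1530 and of AGN were made early at D6.25 and D6.75, then at D7.5, again at D8.5, and last at D10, with 3 per group and 33 in all. No library without a ligand is among them, so the effect of the agonist and that of the inverse agonist cannot be told apart, nor can time and the change of medium where a group is set against PM. The PM libraries are labelled as embryoid bodies, whereas the methods describe embryoid bodies for the first days only, so a change of culture form at D6 rests on the labels alone and cannot be told apart from time either. The methods give 3 biological replicates without saying which cell line or differentiation each came from, and the p-values measure the spread between these samples. In bulk RNA, more cells of a type and more RNA per cell cannot be told apart.

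Library totals ran from 17.12 to 22.78 M counts, apart from 38.12 M in AGN at D8.5 replicate 1. Levels are counts per M counts of the library (CPM), with each total scaled by TMM, an edgeR factor that corrects for library composition. CD1530 at D6.75 replicate 1 stood apart from its 2 replicates. The chi-square per gene was 20.3 and 21.5 for its pairs, against 1.58 to 4.76 for all other pairs of replicates. Counts of called members at D6.75 are given with and without it, as are the differences of some members. The other D6.75 values, among them the counts without overlap and of first calls, include it. Of 10 retinoic acid receptor targets, 9 were higher and 0 lower in CD1530 at D10, with a summed level of 1269 to 1286 CPM against 183 to 188. The 6 cartilage markers summed to 749 to 763 CPM in CD1530 and 3980 to 4166 CPM in AGN at D10. The 7 tendon markers were all higher at D10 than in PM, and their median log2 rise was 7.06 for CD1530 and 7.57 for AGN. They did not set CD1530 above AGN, since 0 of 7 were higher and 5 were lower in CD1530, among them Scx with 858 against 1223 CPM and a log2 difference of -0.51 ± 0.04 (adjusted p = 1e-14). Here and throughout, a log2 difference is a log2 fold change of the CPM ± its SE, CD1530 over AGN unless another pair is named, and the adjusted p is that of edgeR over all genes.

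Retinoic acid receptors bind pairs of the half-site AGGTCA, of which the close variant AGTTCA, the close variant GGGTCA and a variant that differs in both ways, GGTTCA, were also used, and the start regions of the members were therefore searched for these letters on both strands. RefSeq windows of 300 bases, 250 before to 50 after the start on GRCm38.p6, were matched by symbol for 57 of the 66 members, in 73 windows. A half-site was found in 22 of the 73 windows (30.1%), against 37.6% of the windows of all genes in the table and 43.7% of all 32851 windows. Pairs of direct repeats spaced by 1, 2 or 5 bases were found in 0 of the 73, and in 0.208%, 0.0803% and 0.0469% of the windows of genes in the table (0.222%, 0.268% and 0.0974% of all windows), and nothing was read from the 0 of 73. The member windows were richer in GC than all windows, with a median of 64.3% against 52.7%. The 4 windows below are shown because their genes carry the differences described later. Sema3e was the member that was higher in CD1530 at each time point, Plxnd1 encodes its receptor, and Ephb1 and Sema3c had large differences of opposite sign at D10. Capitals mark a half-site on either strand and are absent from the last 2, where these letters do not occur in the window.

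Sema3e, chr5:14025026-14025325, plus strand, GGGTCA at -5 from the start: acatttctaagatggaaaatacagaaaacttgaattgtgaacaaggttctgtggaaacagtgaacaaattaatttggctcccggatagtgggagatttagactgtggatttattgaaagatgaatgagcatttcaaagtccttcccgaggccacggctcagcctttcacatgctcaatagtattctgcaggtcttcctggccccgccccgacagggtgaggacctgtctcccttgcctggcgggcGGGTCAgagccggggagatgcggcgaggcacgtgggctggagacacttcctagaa
Plxnd1, chr6:115994956-115995255, minus strand, AGGTCA read on the opposite strand at -103: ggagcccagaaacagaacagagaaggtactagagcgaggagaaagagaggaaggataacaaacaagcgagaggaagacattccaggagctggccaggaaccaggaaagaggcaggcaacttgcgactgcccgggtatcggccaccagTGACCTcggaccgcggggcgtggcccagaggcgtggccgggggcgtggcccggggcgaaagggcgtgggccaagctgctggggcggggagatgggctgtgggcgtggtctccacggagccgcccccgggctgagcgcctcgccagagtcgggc
Ephb1, chr9:102354644-102354943, minus strand: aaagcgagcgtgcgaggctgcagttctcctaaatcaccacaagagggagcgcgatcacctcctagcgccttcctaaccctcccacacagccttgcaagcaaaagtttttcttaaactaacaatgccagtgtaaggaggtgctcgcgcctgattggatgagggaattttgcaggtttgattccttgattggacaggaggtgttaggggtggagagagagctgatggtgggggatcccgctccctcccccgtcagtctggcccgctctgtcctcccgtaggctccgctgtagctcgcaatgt
Sema3c, chr5:17574566-17574865, plus strand: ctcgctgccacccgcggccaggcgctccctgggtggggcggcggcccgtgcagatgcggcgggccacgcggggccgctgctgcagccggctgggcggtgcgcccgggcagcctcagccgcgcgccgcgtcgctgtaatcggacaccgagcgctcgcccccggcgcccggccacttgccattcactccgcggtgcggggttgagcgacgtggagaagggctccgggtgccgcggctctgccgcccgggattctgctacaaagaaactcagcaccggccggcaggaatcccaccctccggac

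The first comparison asked which guidance genes had changed from the common PM state. Most had risen in both conditions, and early. A gene was called at a Benjamini-Hochberg adjusted p under 0.05 in edgeR's quasi-likelihood test over all genes. At D6.25, the first time point after induction, 46 members were higher and 7 lower than in PM in CD1530, where 34.5% of all genes were higher and 33.3% lower. In AGN the same counts of 46 and 7 stood against 35.0% and 33.1% of all genes. At D10, 56 members were higher and 6 lower than in PM in CD1530 (43.3% and 39.9% of all genes), and 57 were higher and 6 lower in AGN (41.6% and 40.4%). The median log2 fold change of the members at D10 was 1.28 in CD1530 and 1.65 in AGN, beside 0.04 and -0.002 over all genes. The shares of members above PM were thus over those of all genes in both conditions, and the shares below PM were under them. Both comparisons share the 3 PM libraries.

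**Figure D1:**
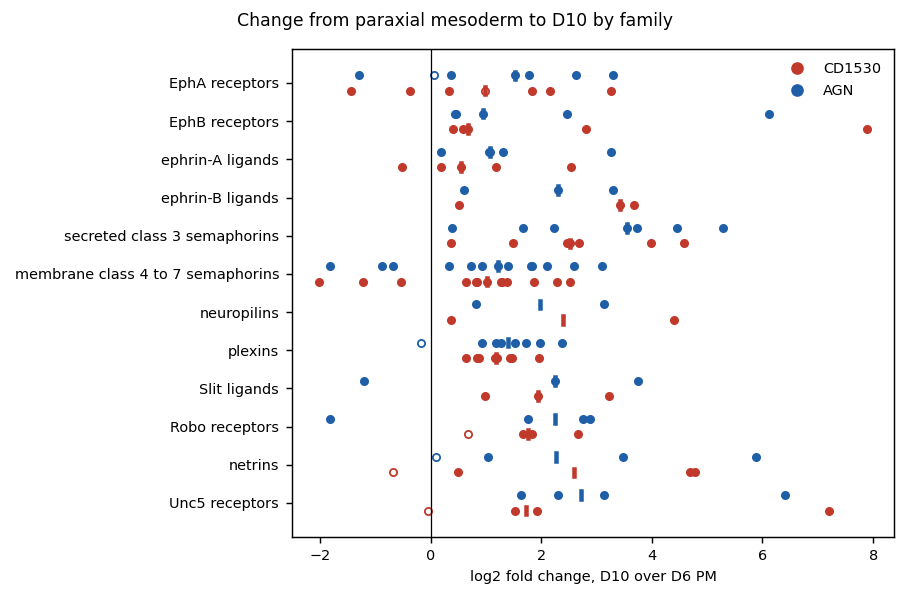
Log2 fold change of each guidance gene at D10 over PM, by family, in CD1530 and in AGN. Each point is a gene, open where it was not called, and the bar is the family median. Class 3 semaphorins lie entirely above 0 in both conditions, with medians of 2.53 and 3.55, and semaphorins of classes 4 to 7 hold more of the genes that fell than any other family.

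Class 3 semaphorins, ephrin-B ligands, EphB receptors and neuropilins had risen without exception by D10, with 7 of 7, 3 of 3, 5 of 5 and 2 of 2 members called higher in both conditions. Ephb1, a receptor of ephrin-B ligands, had the largest mean rise over the 2 conditions among members with at least 50 counts on average. Its levels in PM were 0.622, 0.283 and 0.377 CPM, and at D10 they were 99.1, 104 and 106 CPM in CD1530 and 32.1, 29.0 and 29.9 CPM in AGN. The log2 fold change over PM was 7.89 ± 0.14 (adjusted p = 1.18e-37) in CD1530 and 6.12 ± 0.16 (adjusted p = 4.9e-31) in AGN. Unc5a, a netrin receptor, stood at 0.335, 0.708 and 0.593 CPM in PM and rose by 7.19 ± 0.14 in CD1530 and 6.40 ± 0.15 in AGN on the log2 scale (adjusted p = 6.03e-36 and 4.5e-33). Ntn3, a netrin, rose from 1.48, 1.65 and 0.593 CPM by 4.79 and 5.89, Sema3a, the founding repellent of the class 3 family, from 7.18, 6.90 and 5.28 CPM by 4.59 and 5.28, and Ntn4, a netrin of basement membranes, from 0.478, 0.708 and 0.323 CPM by 4.69 and 3.49. No library of these genes in PM reached a level seen at D10.

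The members called lower than PM in both conditions at D10 were Sema4b, Sema4d, Sema4f and Epha2. Sema4b, a membrane semaphorin, stood at 98.2, 98.3 and 93.9 CPM in PM, 25.1, 23.6 and 23.3 CPM in CD1530 and 30.2, 27.6 and 25.1 CPM in AGN at D10. The log2 fold change over PM was -2.01 ± 0.06 in CD1530 and -1.81 ± 0.06 in AGN (adjusted p = 1.81e-29 and 7.51e-28). Sema4d, the ligand of plexin B1, changed by -1.23 and -0.88, and Sema4f by -0.53 and -0.68. Epha2, a receptor with a broad role in epithelia and early embryos, started at 186, 175 and 167 CPM and ended at 137, 137 and 133 CPM in CD1530 and 71.0, 72.4 and 71.8 CPM in AGN, changes of -0.37 and -1.29. Slit1 belonged to the members that fell in AGN only, with a log2 fold change over PM of -1.19 ± 0.13 in AGN and 0.98 ± 0.10 in CD1530 (adjusted p = 7.01e-11 and 1.12e-11), and its 3 libraries in PM lay between those of AGN and CD1530 at D10. Robo3 likewise was called lower in AGN alone, and Epha1 and Efna1 in CD1530 alone.

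Some members peaked early and declined again. The highest group mean was reached at D10 by 35 members along CD1530 and 34 along AGN, at D6.25 by 6 and 8, and at D6.75 by 8 and 12. Such counts were not made over all genes, so nothing particular to the members was read from them. Plxna4, a receptor component for class 3 and class 6 semaphorins, was at 1.77, 1.61 and 1.56 CPM in PM and at 26.4, 33.6 and 31.4 CPM in CD1530 and 26.5, 25.6 and 27.9 CPM in AGN at D6.25. The rise over PM was 4.20 ± 0.17 in CD1530 and 4.01 ± 0.17 in AGN (adjusted p = 2.89e-21 and 1.98e-20). By D10 its levels were 3.33, 4.18 and 3.65 CPM and 6.88, 6.32 and 6.36 CPM. Sema6d, a membrane ligand of the A plexins, had its highest mean at D6.75 with 96.8 ± 20.6 CPM (SD, n = 3) in CD1530 and 104 ± 3.39 CPM in AGN, and D10 means of 17.0 ± 0.425 and 34.4 ± 2.42 CPM. The wide SD in CD1530 at D6.75 comes with the library that stood apart, since the 3 values were 73.0, 107 and 109.8 CPM.

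The second comparison, CD1530 against AGN at each time point, addressed how the guidance genes differed between the tendon and the fibrocartilage condition. At D6.25, 3 members were higher and 2 lower in CD1530, beside 1.23% and 0.695% of all genes, and scaling by library size alone gave 5 and 2 (71.4% of the calls higher in place of 60.0%). At D6.75, 11 were higher and 24 lower, beside 7.94% and 10.0% of all genes. A fit of only the 6 libraries compared called 14 members at D6.25, with 4.87% of all genes, and 15 at D6.75, with 7.42%. The counts at D7.5 were 16 and 18 (15.2% and 11.8% of all genes). They were 14 and 23 (20.4% and 19.6%) at D8.5 and reached 16 and 29 (22.7% and 24.0%) at D10. Members lower in CD1530 were thus a larger share than among all genes at each time point, and members higher in CD1530 were close to the share of all genes at D8.5 and D10. The median log2 fold change of the members at D10 was -0.13, beside -0.02 over all genes. The difference changed over the 5 time points in 49 members (48.8% of all genes) by edgeR's interaction test.

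**Figure D2:**
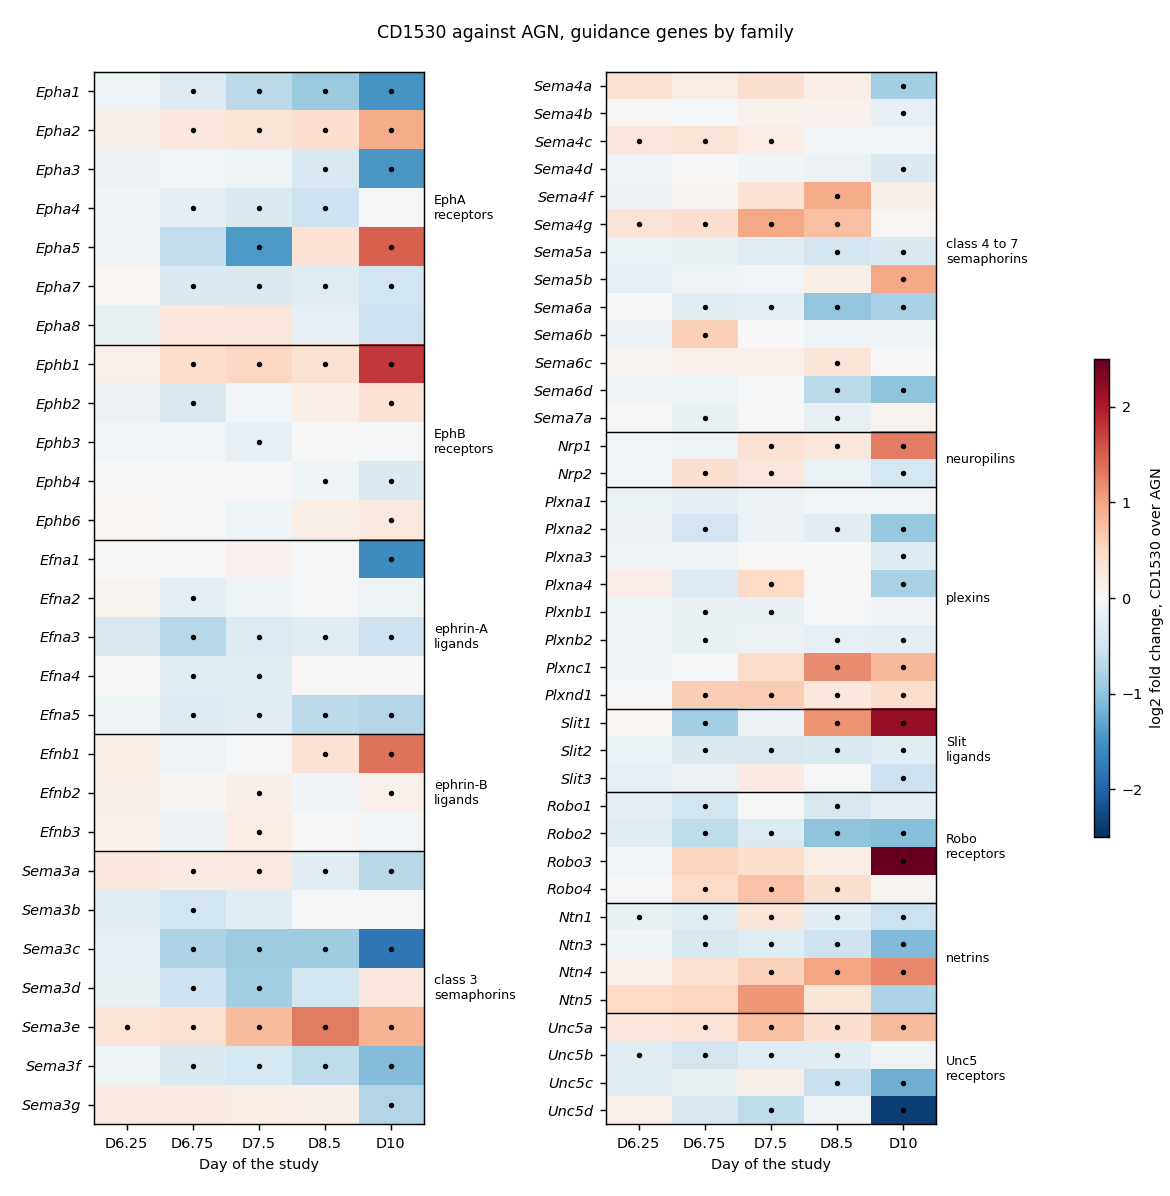
Log2 fold change of CD1530 over AGN for the 65 guidance genes at the 5 time points, by family. Red is higher in CD1530, blue is lower, the colour stops at 2.5 in either direction and a dot marks a called gene. Called genes are few at D6.25, and the darkest cells, such as Slit1, Ephb1, Unc5d, Sema3c and, on very low counts, Robo3, lie at D10.

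The 3 libraries of CD1530 lay entirely above or below the 3 of AGN in 9 and 16 members at D6.25 and in 10 and 27 at D6.75. The same held for 22 and 23 members at D7.5, for 16 and 28 at D8.5 and for 16 and 35 at D10. Over all genes, 21.1%, 26.3%, 42.5%, 51.4% and 57.0% had no overlap in either direction at these time points. Of the 66 members, 5 were called from D6.25 and 30 first at D6.75, with 8 added at D7.5, 9 more at D8.5, 10 at D10, and 4 never called. Over all genes 1.92% were called from D6.25 and 16.5% first at D6.75, then 15.7%, 17.5% and 14.8%, with 33.6% never called. Without CD1530 replicate 1 at D6.75, 31 members were called at that time point (11 higher and 20 lower, with 17.5% of all genes called), and 30 of them were called with all libraries too, each with the same sign. Epha4, Plxnb1, Plxnb2, Sema3d and Unc5a were called only with that library and Efnb2 only without it.

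By family, ligands and receptors both held calls at D6.75. Of the 5 ephrin-A genes 4 were lower in CD1530 and none higher, and of the 7 class 3 semaphorins 4 were lower and 2 higher. Of the 3 Slits and of the 4 netrins, 2 each were lower and none higher, while no ephrin-B gene was called, and 3 semaphorins of classes 4 to 7 were higher and 2 lower. Among the receptors at D6.75, 1 EphA gene was higher and 3 lower, 1 EphB gene was higher and 1 lower, 1 plexin was higher and 3 lower, 1 Robo gene was higher and 2 lower, 1 Unc5 gene was higher and 1 lower, and 1 neuropilin was higher. Without the library that stood apart, the counts higher and lower were 2 and 3 for class 3 semaphorins, 1 and 0 for ephrin-B genes, 1 and 2 for EphA genes, 1 and 1 for plexins and 0 and 1 for Unc5 genes, and those of the other families were as before. A fit of only the 6 libraries compared kept fewer calls at D6.75. Lower in CD1530 were Efna3, Sema3c, Sema3f, Slit1, Ntn1, Robo2 and Unc5b, with no EphA gene and no plexin among them. Higher were Epha2, Ephb1, Plxnd1, Robo4, Sema3e, Sema4c, Sema4g and Sema6b. At D8.5 the ephrin-A genes stood at 0 higher and 2 lower, the class 3 semaphorins at 1 and 3, the classes 4 to 7 at 3 and 4, and the EphA genes at 1 and 4.

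The members called at D6.25 were Sema3e, Sema4c and Sema4g, which were higher in CD1530, and Ntn1 and Unc5b, which were lower. Sema4c, a ligand of plexin B2, stood at 111, 111 and 115 CPM in CD1530 and 95.3, 87.6 and 95.4 CPM in AGN, with no overlap and a log2 difference of 0.28 ± 0.04 (adjusted p = 1.71e-05). It was called up to D7.5, and at D8.5 the libraries were at 94.6, 98.2 and 97.5 CPM and 96.5, 105 and 102 CPM and overlapped. Unc5b, a netrin receptor also known from blood vessels, was at 149, 179 and 167 CPM in CD1530 and 200.2, 195 and 199 CPM in AGN at D6.25, a difference of -0.26 ± 0.05 (adjusted p = 0.000346). Its CD1530 libraries lay below those of AGN at each of the 5 time points, and the difference was called at all but D10. Sema4g, another membrane semaphorin, differed by 0.34 ± 0.09 at D6.25 (adjusted p = 0.0209) and by 0.97 ± 0.08 at D7.5 (adjusted p = 1.66e-12). The D6.25 call of Sema4g was lost without CD1530 replicate 1 or 2 or AGN replicate 2 or 3, at 0.33, 0.31, 0.31 and 0.35. Its D10 libraries overlapped, at 34.3, 34.1 and 34.5 CPM and 30.8, 36.2 and 32.5 CPM.

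Sema3e was higher in CD1530 at all 5 time points without overlap between the libraries. At D6.25 it stood at 31.2, 34.5 and 34.9 CPM in CD1530 and 27.3, 26.8 and 25.1 CPM in AGN. At D8.5, where the gap was widest, it was at 37.3, 34.7 and 36.7 CPM and 13.7, 15.0 and 15.7 CPM, and at D10 at 24.1, 24.2 and 25.9 CPM and 12.7, 15.3 and 12.9 CPM. The log2 fold change was 0.34, 0.39, 0.79, 1.30 and 0.86 from D6.25 to D10, each with an SE of 0.07 to 0.09 and an edgeR adjusted p between 1.14e-17 and 0.00368. Sema3e was the only member with a called difference of 1 sign and no overlap at every time point. Plxnd1, its receptor and a plexin known from endothelial cells, was chosen for mention after its values were seen. At D6.75 the Plxnd1 libraries were at 246, 331 and 333 CPM in CD1530 and 207, 189 and 199.9 CPM in AGN, a difference of 0.61 ± 0.09 (adjusted p = 6.29e-06), in which the low CD1530 value belongs to the library that stood apart. Without that library the difference was 0.74 ± 0.06 (adjusted p = 1.45e-09). At D7.5 the difference was 0.64 ± 0.09 (adjusted p = 2.93e-06). Plxnd1 was called at 4 time points, from D6.75 through D10, and each time it was higher in CD1530. Beside this, 7 of the 8 endothelial markers were higher in CD1530 at D6.75, with a summed level of 424 to 449 CPM against 272 to 289, and 7 of 8 at D7.5, with 471 to 484 CPM against 293 to 313. At D8.5 these markers summed to 301 to 307 CPM in CD1530 against 261 to 263 in AGN. By D10 the markers summed to less in CD1530, at 180 to 190 CPM against 279 to 291, while Plxnd1 was still higher there. The part of these markers in the differences of Plxnd1 and Sema3e was not tested.

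**Figure D3:**
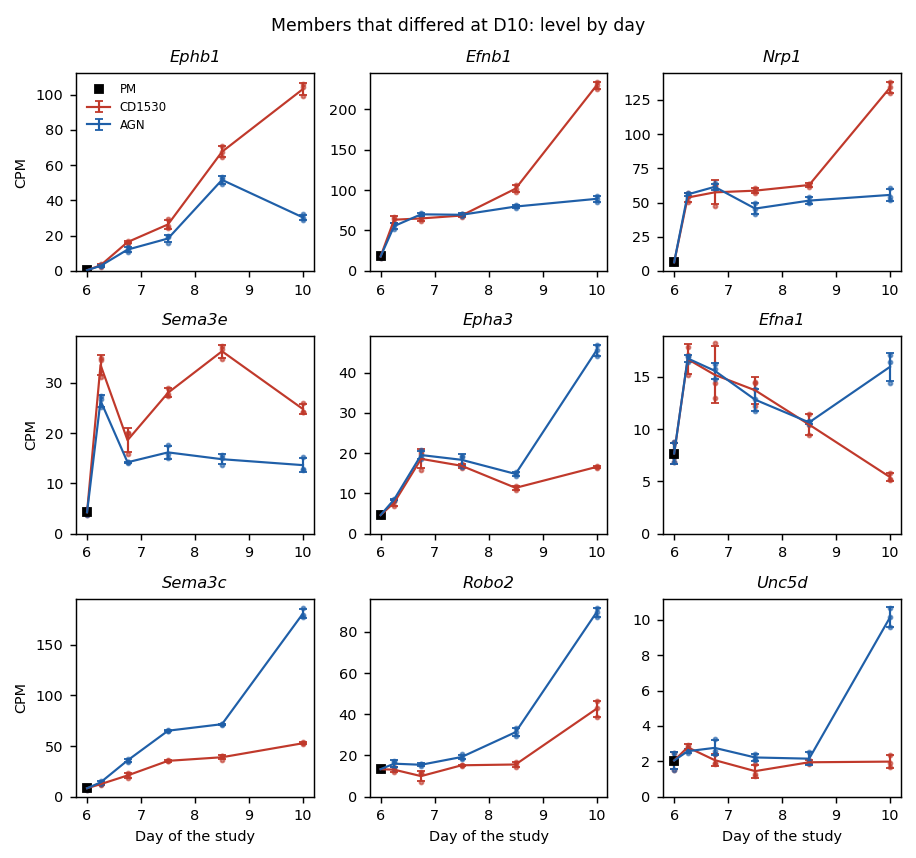
Levels of 9 members from PM at D6 to D10 in CPM, with 1 point per library, lines through the group means and bars of 1 SD (n = 3). Ephb1, Efnb1, Nrp1 and Sema3e end above AGN in CD1530, and Epha3, Efna1, Sema3c, Robo2 and Unc5d end below it, with no overlap between conditions at D10.

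Among the ephrin ligands at D10, none of the 5 ephrin-A genes was higher in CD1530 and 3 were lower, whereas 2 of the 3 ephrin-B genes were higher and none lower. Efnb1, the X-linked ephrin-B1 ligand with a known role in skeletal patterning, stood at 225, 233 and 229.7 CPM in CD1530 and 92.7, 85.1 and 89.5 CPM in AGN. The CD1530 libraries were all more than 2-fold above those of AGN, and the log2 fold change was 1.36 ± 0.05 (adjusted p = 1.3e-24). Most of this arose in the last step, since at D8.5 the levels were 97.9, 106 and 102 CPM and 79.9, 77.6 and 81.2 CPM, a difference of 0.35 ± 0.05. Efnb2, which marks arteries and the posterior part of each somite, was chosen for mention after its values were seen, and differed at D10 by only 0.13 ± 0.05 (adjusted p = 0.0154). Efna1, a ligand of EphA receptors, showed the opposite direction. Its D10 libraries were at 5.20, 5.17 and 5.85 CPM in CD1530 and 14.4, 17.0 and 16.4 CPM in AGN, a log2 difference of -1.56 ± 0.12 (adjusted p = 1.6e-14). At the 4 earlier time points the Efna1 libraries of the conditions overlapped and no difference was called. Efna2, the ephrin-A gene with the highest level per length at D10 in the mean of the 2 conditions, was at 27.1, 27.4 and 26.3 CPM and 31.4, 27.4 and 29.4 CPM and overlapped between the conditions.

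Of the Eph receptors at D10, 5 were higher in CD1530 and 4 lower. Ephb1 stood at the levels given above against PM, and its CD1530 libraries were all more than 3-fold over those of AGN, with a log2 difference of 1.77 ± 0.07 (adjusted p = 2.46e-23). From D8.5 to D10 the log2 fold change of Ephb1 was 0.61 ± 0.07 in CD1530 and -0.77 ± 0.07 in AGN, a rise in one condition and a fall in the other. Epha2, which had fallen from PM in both conditions, kept higher levels in CD1530 and differed by 0.92 ± 0.05 at D10 (adjusted p = 1.3e-20). Epha3, a receptor of ephrin-A ligands, was at 16.8, 16.6 and 16.3 CPM in CD1530 and 45.5, 44.1 and 46.9 CPM in AGN. The groups did not overlap, and the log2 fold change was -1.46 ± 0.08 (adjusted p = 6.85e-20). Epha1 was at 7.73, 8.64 and 6.63 CPM and 21.2, 23.3 and 19.9 CPM, a difference of -1.48 ± 0.09 (adjusted p = 1.1e-17) that had been called since D6.75, although the D6.75 call was lost without AGN replicate 2 (-0.25) and with only the groups compared in the fit (-0.32, adjusted p = 0.118). Of its exon bases 6.01% overlap Zyx on the opposite strand, and the strand setting of the counting is not stated. Ephb4, the receptor of ephrin-B2 on veins, was the EphB gene with the highest level per length and stood at 198, 196 and 188 CPM and 250.4, 253 and 240.3 CPM, a difference of -0.35 ± 0.04 (adjusted p = 1.25e-10).

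The class 3 semaphorins split at D10 into 1 member higher in CD1530, Sema3e, and 4 lower. Sema3c, a chemoattractant for neural crest cells in the outflow tract, stood at 52.7, 52.0 and 53.6 CPM in CD1530 and 187, 179.5 and 177 CPM in AGN. Each AGN library was more than 3-fold above each CD1530 library, and the log2 fold change was -1.78 ± 0.06 (adjusted p = 1.14e-26). The difference was called from D6.75 on, with -0.78 ± 0.07, -0.88 ± 0.06 and -0.88 ± 0.06 at the time points before D10. Sema3f, a repellent that acts through neuropilin 2, had D10 levels of 52.3, 50.3 and 56.4 CPM and 119, 112 and 108 CPM and a log2 difference of -1.09 ± 0.05 (adjusted p = 1.44e-21). The difference was -0.36 ± 0.05 at D6.75 and -0.63 ± 0.05 at D8.5. Without the library that stood apart, the D6.75 values were -0.68 ± 0.07 for Sema3c and -0.34 ± 0.05 for Sema3f, both called. The other 2 lower members were Sema3a, described with the genes that changed sign, and Sema3g, which was called at D10 alone.

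Among the semaphorins of classes 4 to 7, 1 of 13 was higher in CD1530 at D10 and 6 were lower. The higher one was Sema5b, a membrane semaphorin with thrombospondin repeats, at 15.0, 12.8 and 12.9 CPM against 7.69, 6.86 and 6.30 CPM in AGN. Its log2 fold change was 0.97 ± 0.13 (adjusted p = 1.8e-08), and it had not been called before. Sema6d was lower in CD1530, at 17.5, 16.7 and 16.8 CPM against 36.9, 34.0 and 32.1 CPM, a difference of -1.01 ± 0.11 (adjusted p = 9.46e-09). Sema4b and Sema4d, which had fallen from PM, had the lower level in CD1530, with log2 differences of -0.20 ± 0.07 and -0.35 ± 0.06 (adjusted p = 0.0123 and 1.63e-05), and Sema4b lost its call without CD1530 replicate 3 (-0.18) or AGN replicate 1 (-0.13).

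Of the semaphorin receptors, 1 of 2 neuropilins and 2 of 8 plexins were higher in CD1530 at D10, and 1 and 4 were lower. Nrp1, co-receptor of class 3 semaphorins and of VEGF, stood at 138, 130.2 and 134 CPM in CD1530 and 52.1, 60.8 and 53.8 CPM in AGN. The groups were far apart, with a log2 difference of 1.27 ± 0.07 (adjusted p = 1.04e-16). Along AGN the level had stayed near that of D6.25, from 55.9 ± 1.29 CPM (SD, n = 3) to 55.6 ± 4.63 CPM at D10, and along CD1530 it rose by 1.09 ± 0.07 from D8.5 to D10. Of the 8 endothelial markers at D10, 2 were higher and 3 lower in CD1530, and their sum was 180 to 190 CPM against 279 to 291. Plxnc1, a receptor of Sema7a, was at 3.84, 4.13 and 3.77 CPM and 2.13, 2.05 and 2.44 CPM, a difference of 0.83 ± 0.21 (adjusted p = 0.00114) after 1.18 ± 0.18 at D8.5. Plxnb2, the plexin with the highest level per length, stood at 589, 581 and 592 CPM and 680.0, 721 and 694 CPM, and the small difference of -0.25 ± 0.06 (adjusted p = 0.000749) had no overlap between the libraries.

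**Figure D4:**
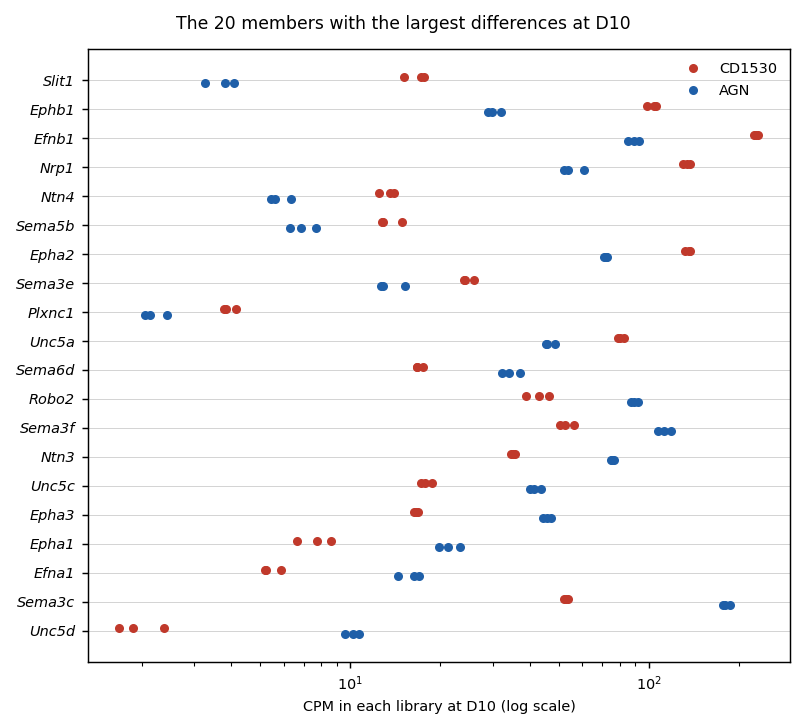
Levels at D10 of the 20 members with the largest called differences, 10 in each direction with a mean of at least 50 counts, in CPM on a log axis with 1 point per library. The 3 libraries of CD1530 and the 3 of AGN do not overlap for any of the 20.

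Slit1, a secreted ligand of Robo receptors best known from the nervous system, had the largest positive difference at D10 among members with a mean of at least 50 counts. Its libraries were at 17.7, 15.2 and 17.3 CPM in CD1530 and 4.06, 3.79 and 3.27 CPM in AGN, a log2 difference of 2.17 ± 0.12 (adjusted p = 5.71e-19). Slit2 and Slit3 were both lower in CD1530 at D10. Slit3, the Slit with the highest level per length, stood at 293, 294 and 293 CPM in CD1530 and 410.1, 445 and 419 CPM in AGN, a difference of -0.53 ± 0.09 (adjusted p = 2.39e-05). Beside Slit1, 9 of the 10 neural markers in the table were higher in CD1530 at D10 and none lower, with a summed level of 154 to 167 CPM against 67.7 to 68.8, although both were below the 582 to 596 CPM of PM. At the floor of at most 3 counts in each library were 0 of these markers in CD1530 and 2 in AGN. Their part in the Slit1 difference was not tested.

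Among the receptors of Slits at D10, Robo2 stood at 42.9, 38.7 and 46.4 CPM in CD1530 and 89.5, 87.2 and 91.8 CPM in AGN. All 3 AGN libraries lay above all 3 of CD1530, with a log2 difference of -1.07 ± 0.08 (adjusted p = 2.36e-13), and the difference was called at D8.5 with an adjusted p of 1.56e-10. Robo1, the Robo gene with the highest level per length, was at 212 ± 6.82 CPM and 246 ± 4.45 CPM (SD) at D10 without overlap of the libraries, and was not called there, whereas at D8.5 it was lower in CD1530 with a log2 difference of -0.39 ± 0.10 (adjusted p = 0.00335). Robo3 and Robo4 were chosen for mention after their values were seen. Robo4, an endothelial member of the family, was higher in CD1530 at D7.5, at 18.5, 18.9 and 19.2 CPM against 12.3, 12.8 and 9.58 CPM in AGN, by 0.71 ± 0.10 (adjusted p = 5.37e-07), at the same time as the endothelial markers given with Plxnd1. Robo3 was called at D10 on low counts only, at 1.36, 1.21 and 0.562 CPM in CD1530 and 0.375, 0 and 0.178 CPM in AGN. Robo3 and Robo4 lie 0.6 kb apart on chromosome 9.

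The netrins differed in direction too. Ntn1, the prototype of the family and the best expressed netrin, stood at 373, 366 and 380.3 CPM in CD1530 and 546, 540.1 and 548 CPM in AGN at D10, a log2 difference of -0.55 ± 0.04 (adjusted p = 4.57e-14). Ntn3 was lower in CD1530 as well, at 35.7, 35.2 and 34.6 CPM against 76.4, 75.5 and 74.8 CPM. The difference was -1.10 ± 0.07 (adjusted p = 2.94e-17) and had been called since D6.75, where the call was lost with only the groups compared (-0.36, adjusted p = 0.0669). Of the Ntn3 exon bases 1.74% are shared with Tbc1d24 on the same strand. Ntn4 was the exception, at 12.5, 13.6 and 14.1 CPM in CD1530 and 5.44, 6.32 and 5.58 CPM in AGN, higher by 1.21 ± 0.12 (adjusted p = 1.91e-11), with differences of 0.57 ± 0.14 at D7.5 and 0.99 ± 0.13 at D8.5.

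The Unc5 receptors of netrins held the largest negative difference. Unc5d was at 2.37, 1.87 and 1.69 CPM in CD1530 and 10.2, 9.57 and 10.7 CPM in AGN at D10, a log2 difference of -2.35 ± 0.16 (adjusted p = 4.9e-16). The CD1530 level overlapped that of PM, at 2.15, 2.46 and 1.51 CPM, and the AGN level had risen from D8.5 to D10 by 2.26 ± 0.15. Unc5c, also lower in CD1530, stood at 18.8, 17.2 and 17.8 CPM and 39.9, 43.5 and 41.3 CPM, with a difference of -1.21 ± 0.11 (adjusted p = 3.9e-12). Unc5a went the other way, at 79.0, 82.4 and 80.4 CPM in CD1530 and 45.6, 48.7 and 45.2 CPM in AGN, higher by 0.79 ± 0.07 (adjusted p = 3.69e-12). Unc5b, which had been called at each time point from D6.25 to D8.5, was at 243, 236 and 244 CPM and 254, 266 and 254 CPM at D10, without overlap and no longer called.

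Beside the lower members, the cartilage markers were lower in CD1530 at D10 (6 of 6, median log2 fold change -3.94, including Col2a1 at 145 against 2497 CPM). Of 8 markers of endoderm and epithelium, 4 were higher and 3 lower in CD1530 at D10, with a median log2 fold change of -0.14, and they summed to 266 to 274 CPM in CD1530 and 369 to 380 CPM in AGN. Their parts in the differences of the guidance genes were not tested.

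A set of 7 members was called in CD1530 over AGN at one time point and under it at another: Slit1, Ntn1, Sema3a, Nrp2, Ephb2, Plxna4 and Epha5. Of all genes 7.5% were called in this way. Slit1 was lower in CD1530 at D6.75, at 5.49, 7.14 and 7.04 CPM against 12.8, 11.2 and 11.6 CPM, with a log2 difference of -0.86 ± 0.11 (adjusted p = 3.16e-08), overlapped at D7.5, and was higher at D8.5 by 1.12 ± 0.14 (adjusted p = 8.77e-09). Ntn1 crossed more than once. It started lower in CD1530, with -0.18 ± 0.04 at D6.25 and -0.30 ± 0.04 at D6.75, turned to 0.29 ± 0.04 at D7.5, and was back at -0.29 ± 0.04 by D8.5. At D7.5 its libraries were at 311, 315 and 298 CPM in CD1530 and 244, 259.7 and 249 CPM in AGN, all 3 above all 3. All of these Ntn1 differences were called, with adjusted p between 4.57e-14 and 0.0192, and the one at D6.25 lost its call without CD1530 replicate 1 (-0.15) or 2 (-0.17) or AGN replicate 1 (-0.18) or 3 (-0.17).

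**Figure D5:**
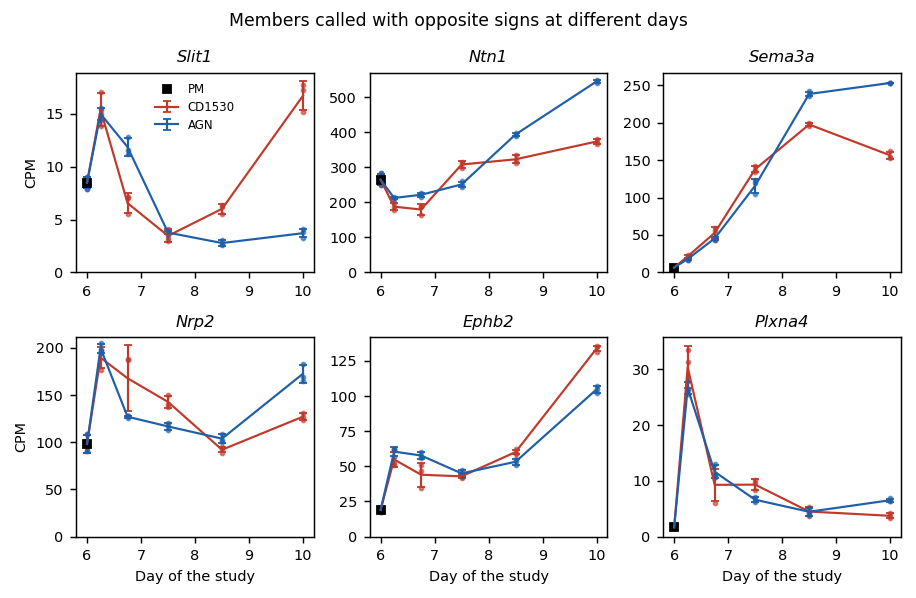
Levels of 6 of the members called with opposite signs at different time points, in CPM from PM at D6 to D10, with 1 point per library, lines through group means and bars of 1 SD (n = 3). The lines of the conditions cross between D7.5 and D8.5 for Slit1, Sema3a, Nrp2 and Ephb2, and both before and after D7.5 for Ntn1 and Plxna4. Those of Nrp2 and Plxna4 also cross between D6.25 and D6.75.

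Sema3a was higher in CD1530 at D7.5, at 142, 134 and 137 CPM against 123, 119 and 105 CPM, by 0.25 ± 0.07 (adjusted p = 0.00648). By D10 it was lower, at 155, 153 and 162 CPM against 253, 254 and 252 CPM, with a log2 difference of -0.69 ± 0.07 (adjusted p = 6.5e-10). Its difference at D6.75, 0.22 ± 0.08 (adjusted p = 0.0483), rested on overlapping libraries and was 0.34 ± 0.06 without the library that stood apart. Nrp2, the other neuropilin, was higher in CD1530 at D6.75 by 0.40 (adjusted p = 0.00267) and at D7.5 by 0.29 ± 0.09 (adjusted p = 0.0227). Without the library that stood apart, its D6.75 difference was 0.56 ± 0.05 (adjusted p = 6.6e-11). With only the groups compared in the fit, the D6.75 call of Nrp2 was lost (0.41, adjusted p = 0.102). At D10 Nrp2 was lower, at 131, 127 and 124 CPM against 165, 183 and 169 CPM, with a log2 difference of -0.44 ± 0.09 (adjusted p = 0.000373). Nrp1 and Nrp2 thus differed in opposite directions at D10. Ephb2, an ephrin-B receptor, had a log2 difference of -0.39 ± 0.08 at D6.75 and, at 135, 131 and 135 CPM against 107, 102 and 105 CPM, of 0.35 ± 0.07 at D10 (adjusted p = 0.000669 and 0.000225). Without the library that stood apart, the D6.75 values of Slit1, Ntn1 and Ephb2 were -0.75 ± 0.11, -0.24 ± 0.04 and -0.24 ± 0.06, all called. With only the groups compared in the fit, the D6.75 call of Ephb2 was lost (-0.38, adjusted p = 0.0904). Plxna4 went from 0.50 ± 0.15 at D7.5 to -0.81 ± 0.19 at D10 (adjusted p = 0.0145 and 0.000677). Epha5, with at most 2.12 CPM in any group mean, went from -1.44 ± 0.41 at D7.5 to 1.49 ± 0.33 at D10 (adjusted p = 0.00693 and 0.000275). The D7.5 calls of this group rested in part on single libraries. Nrp2 lost its call there without CD1530 replicate 2 (0.25) or AGN replicate 1 (0.29) or 3 (0.27), Plxna4 without CD1530 replicate 2 (0.43) or AGN replicate 1 (0.45), Sema3a without AGN replicate 3 (0.19) and Epha5 without AGN replicate 2 (-1.22).

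The step from D8.5 to D10 moved many members in both conditions. In CD1530, 33 rose and 13 fell (27.4% and 29.9% of all genes), and in AGN 40 rose and 12 fell (29.9% and 29.5%). Rises were thus more frequent and falls less frequent among the members than among all genes. Scaling by library size alone gave 28 and 17 members in CD1530, where 59.2% of all genes were called in either direction. In AGN it gave 35 and 16, beside 61.0% of all genes. The change of the difference between conditions over this step, a contrast chosen after seeing the data, was called in 33 members (26.8% of all genes). Among the named members it was largest for Unc5d, at -2.22 ± 0.26 on the log2 scale (adjusted p = 7.13e-09), and stood at -1.53 ± 0.16 for Efna1, -1.07 ± 0.12 for Epha3 and -0.90 ± 0.08 for Sema3c. In the other direction it was 1.38 ± 0.10 for Ephb1, 1.06 ± 0.19 for Slit1, 1.01 ± 0.07 for Efnb1 and 0.99 ± 0.10 for Nrp1. For Efna1 the 2 conditions moved in opposite directions, with a log2 fold change over the step of -0.95 ± 0.13 in CD1530 and 0.58 ± 0.10 in AGN.

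Members outside the rule for named genes were chosen for mention here after their values were seen. Plxna2, a co-receptor for class 3 and class 6 semaphorins, was at 49.1, 45.8 and 50.1 CPM in CD1530 and 90.5, 93.6 and 94.3 CPM in AGN at D10, without overlap and with a log2 difference of -0.94 ± 0.11 (adjusted p = 4.58e-08). Its ligand Sema6a was lower as well, at 53.8, 55.6 and 59.3 CPM against 98.6, 103 and 95.1 CPM, with -0.81 ± 0.06 at D10 and -0.99 ± 0.06 at D8.5 (adjusted p = 2.22e-15 and 4.85e-18). Efna5, another ephrin-A gene with a lower level in CD1530, was at 28.9, 32.6 and 29.7 CPM against 50.1, 52.7 and 48.0 CPM at D10, and its difference of -0.73 ± 0.06 had been called since D6.75. Epha7, a receptor of such ligands, was at 111, 113 and 118 CPM against 159, 160.2 and 153 CPM, with -0.47 ± 0.06, and was also called from D6.75 on, and both lost the D6.75 call with only the groups compared (-0.32 with an adjusted p of 0.0678 for Efna5, -0.36 with 0.0746 for Epha7). Epha4, by contrast, was lower in CD1530 at D8.5 by a log2 difference of -0.52 ± 0.07 and overlapped at D10, at 57.8, 53.0 and 58.2 CPM and 56.8, 56.9 and 57.9 CPM. Sema4a and Sema3g were called at D10 alone, with -0.85 ± 0.22 and -0.74 ± 0.18 on low levels of 2.33 ± 0.663 and 2.66 ± 0.279 CPM (SD) in CD1530. The 4 members called between the conditions at no time point were Epha8, Ntn5, Plxna1 and Unc50, of which Plxna1 was well expressed, at 343, 333 and 348 CPM and 322, 363 and 382 CPM at D10.

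To set genes side by side, levels were divided by exon length. This length counts every annotated exon of a gene, whether or not the cells used it, so the order of genes is approximate. In PM the highest were Ntn1 at 42.1 CPM per kb, Epha2 at 37.6, Ephb4 at 27.7 and Plxnb2 at 27.4. At D10 in CD1530 the order was Plxnb2 at 76.1 CPM per kb, Efnb1 at 66.4, Ntn1 at 59.5, Slit3 at 48.4 and Ephb4 at 41.8. In AGN it was Plxnb2 at 90.4 CPM per kb, Ntn1 at 86.8, Slit3 at 70.0, Ephb4 at 53.4 and Unc5b at 41.2. Efnb1, in the second place in CD1530, was at 25.8 CPM per kb in AGN. Robo3, Epha5, Epha8 and Ntn5 had the lowest levels per length at D10, and 5 members had a mean count under 50 over all libraries.

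The partners of these families were followed with 2 further lists, chosen like the members with earlier results known. Of 21 other guidance receptors and ligands in the table, 11 were higher and 6 lower in CD1530 at D10, beside 22.7% and 24.0% of all genes, with a median log2 fold change of 0.17 beside -0.02. Neo1, a netrin receptor, was at 332 against 263 CPM, higher by 0.33 ± 0.08 (adjusted p = 0.00101). Dcc, the classical attractive netrin receptor, was low in both conditions, at 1.72, 1.10 and 1.74 CPM and 1.19, 0.662 and 1.19 CPM. Ntng1, a membrane-anchored netrin relative, was at 4.80, 4.57 and 6.46 CPM in CD1530 and 50.4, 48.7 and 46.9 CPM in AGN, a log2 difference of -3.21 ± 0.10 (adjusted p = 4.08e-28). Flrt3, a ligand of Unc5 receptors, was also lower, at 29.8, 32.5 and 31.6 CPM against 81.0, 78.5 and 79.2 CPM, with -1.35 ± 0.05 (adjusted p = 6.83e-25). Kdr, the VEGF receptor that pairs with Nrp1, was higher, by 1.09 ± 0.09 (adjusted p = 3.94e-12).

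Of 31 intracellular effectors in the table, 13 were higher and 7 lower in CD1530 at D10, beside the same 22.7% and 24.0% of all genes, with a median log2 fold change of 0.11. Their summed level was 3812 to 3966 CPM in CD1530 and 2779 to 2825 CPM in AGN, and at D6.25 it was 1717 to 1801 and 1779 to 1804 CPM. The largest single part of the D10 gap was Dpysl3, a collapsin response mediator that relays semaphorin signals to the cytoskeleton, at 1310.0, 1253 and 1332 CPM in CD1530 and 422, 428 and 415 CPM in AGN. It was higher by 1.62 ± 0.04 (adjusted p = 2.43e-29). Ablim1, an actin-binding LIM protein, was higher too, at 229.9, 229 and 238 CPM against 79.7, 82.7 and 83.2 CPM, by 1.50 ± 0.06 (adjusted p = 2.95e-24). Tiam1, an activator of Rac, and Mical1, an oxidase that takes actin apart after plexin activation, were lower, with log2 differences of -0.59 ± 0.10 and -0.61 ± 0.06 (adjusted p = 9.56e-06 and 4.12e-12).

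Some members are neighbours on their chromosome. Efna1, Efna3 and Efna4 lie in a row on chromosome 3, with gaps of 32.8 and 10.4 kb, and at D10 Efna1 and Efna3 were lower in CD1530 while Efna4 was at 20.8, 20.5 and 20.7 CPM and 21.9, 20.2 and 20.1 CPM with overlap. Sema3b and Sema3f lie 72.3 kb apart on chromosome 9, and Sema3b was at 5.00, 4.90 and 4.33 CPM and 5.00, 4.40 and 5.05 CPM at D10, again with overlap. Efna3, Efna4 and Sema3b were chosen for mention after their values were seen. Of the exon bases of Ntn5, 23.4% overlap Sec1, and of Sema4c 7.27% overlap another gene. Efna3, Plxna1 and Efna4 share 14.1%, 10.7% and 10.5% of theirs with genes on the opposite strand. Without a stated strand setting, reads in these stretches cannot be told apart.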

How the data were processed

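RNA was sequenced from 33 cultures in 11 groups of 3. The authors aligned reads to GRCm38 with STAR, assigned them to genes with featureCounts and deposited raw counts per gene for 17120 genes. Which annotation and strand setting they counted with, and whether multimapping reads were kept, is not given in the sources used here. The deposited counts had been filtered, since the third-highest library of every gene reached at least 0.611 CPM. Totals had a median of 19.9 M.

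All libraries entered 1 fit in edgeR 4.0.16 (R 4.3.3) with a mean for each group, TMM scaling, a robust quasi-likelihood F test and Benjamini-Hochberg adjustment over all genes in each contrast. Filtering with filterByExpr kept all 17120 genes, and the biological coefficient of variation was 4.68%. SE was the absolute log2 fold change over the root of F. Replicates are given as SD with n = 3.

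Members were named with values if called at D6.25, if among the 10 largest called differences in either direction at D10 with a mean of at least 50 counts, if called with opposite signs at different time points, if among the 5 largest rises or falls from PM, if highest per kb in their family, or if different without overlap at all time points. The members and lists were chosen with earlier results of these data known. CPM per kb used the merged length of all exons of a gene in GENCODE M21. Alternatives used DESeq2 1.42.0 and other scalings, filters and samples. Replicate numbers did not pair the samples. SEs and SDs cannot separate PCR duplication from spread between cultures.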

Additional observations from a re-analysis of the deposited data

Results flagged for a closer look

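The difference between CD1530 and AGN changed over the 5 time points in 49 of the 66 members by edgeR's interaction test, beside 48.8% of all genes. For 7 members it was called in opposite directions at different time points, as it was for 7.5% of all genes. Their adjusted p for the interaction was 0.000171 for Epha5, 1.64e-05 for Ephb2, 4.29e-05 for Nrp2, 2.06e-13 for Ntn1, 0.00021 for Plxna4, 2.36e-09 for Sema3a and 2.74e-18 for Slit1. Because these 7 members were picked for opposite calls in the same fit, small values follow from the choice and add no separate evidence.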

How the results depend on the processing

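With only the groups compared in the fit, 14 members in place of 5 were called at D6.25, where 4.87% of all genes were called, and 15 in place of 35 at D6.75, where 7.42% of all genes were called. The cause was not tested. Leaving out each library in turn gave 3 to 6 calls at D6.25 beside 1.14% to 1.61% of all genes. The 3 came without CD1530 replicate 2. At D6.75 there were 28 to 36 calls (2452 to 3428 of the 17120 genes). At D7.5 there were 28 to 30 (21.8% to 23.7% of all genes). The counts were 34 to 36 at D8.5 (34.5% to 37.2% of all genes) and 43 to 45 at D10 (41.9% to 42.5%). Against PM at D6.25 these counts were 50 to 54 in CD1530 (64.1% to 65.5% of all genes) and 49 to 54 in AGN (64.2% to 65.3%). Against PM at D10 they were 60 to 62 in CD1530 and 60 to 63 in AGN. Of the 17120 genes, 13867 to 13925 and 13611 to 13735 were called there. For the step from D8.5 to D10, 41 to 45 members were called in CD1530 and 47 to 51 in AGN. Over all genes this step had 9068 to 9147 calls in CD1530 and 9416 to 9745 in AGN. For the interaction 48 to 55 members were called, beside 45.9% to 55.2% of all genes. Of the named differences called in at least 1 fit, 1 turned its sign. Unc5c at D6.75, not called with all libraries, ranged from -0.34 to 0.011, the latter without CD1530 replicate 1 (adjusted p = 0.958). The 65 of 185 named differences with no call in any fit were not followed in this way. Among them Nrp1, Epha3, Plxnc1 and Sema6d at D6.75 went from a negative to a positive value without CD1530 replicate 1, and none was called. Replicate numbers did not pair the samples, with correlations of -0.13 to 0.0995. A fit with the replicate block called 33 members at D6.75, beside 17.6% of all genes, and lost Sema3a and Unc5a there. Of 120 named differences called in any fit, 9 lost and 13 gained their call with only the groups compared, 2 and 2 with DESeq2 size factors, 1 and 4 with library size only, and 0 and 3 with DESeq2, and none with other filters on low counts. Scaling by library size moved the median of all genes by more than 0.1 only against PM at D10, to -0.07 in CD1530 and -0.15 in AGN, and over the last step in AGN, to -0.11. At D6.75 in the named members, Sema3a, Unc5a and Plxnb2 lost their call in 5, 4 and 4 of the 6 fits without 1 library. The members with the fewest counts, such as Epha5 and Robo3, carried the widest errors.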
